A study of Mus musculus with 6 samples.

Results

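Dendrin is a cytosolic protein of podocytes that lies at the slit diaphragm, where the foot processes of neighbouring cells meet, and the proteins that bind it are of interest because dendrin can move to the podocyte nucleus. The paper on this mouse line screened a glomerular cDNA library by yeast two-hybrid with dendrin as bait, and 9 of the genes named there are described here. They are Hnrnpf, Mrpl38, Ccdc80, Zbtb17, Dnajc14, Itgb4, Flna, Capns1 and Morn2, out of 18194 genes that the array represents. All 18 probe sets that the array annotation assigns to one of these genes alone were used, out of 45101 on the array. They come from the list of positive clones, and the rule for taking them used no expression value, although earlier results of these arrays were known. Another 4 clones of a single gene, among them Gadd45a, are set beside them at the end. The questions asked of the data were whether each candidate is expressed in glomeruli and whether its mRNA differs when dendrin is absent.

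Glomeruli were isolated from 3 dendrin knockout mice and 3 wild-type littermates at 13 months of age, and each mouse was measured on 1 Affymetrix array. In the knockout line the whole coding sequence of dendrin was replaced in all cells by a cassette with eGFP and a neomycin resistance gene. The genetic background of both groups is given as 129S6SvEv/C57BL6, with backcrossing to C57BL/6 according to the methods. No treatment was given. Values are log2 GCRMA values, that is, background-corrected and quantile normalized signals, and differences are knockout minus control on that scale. Levels of different probe sets depend on their probes and were not set against each other.

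Ddn, the dendrin gene, was at 3.80 to 3.81 on the 3 knockout arrays and at 12.22 to 12.81 on the 3 control arrays. A probe set with a mean under log2 4 over the 6 arrays is called dim. The lowest value on the arrays was 2.2, so that this level is a chosen cut above it. A probe set over the cut can still be constant, as that of Mxd3 was. All 7 podocyte genes with a single-gene probe set, among them Nphs1, Podxl, Synpo and Wt1, were far from dim. Control 2 stood apart. The summed unlogged level of 9 genes typical of the loop of Henle, the distal tubule and the collecting duct was 13404 on this array against 2861 to 3961 on the other 5. That of 10 leukocyte genes was 6827 against 20758 to 36354.

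In a yeast two-hybrid screen a bait protein and a prey from a cDNA library are joined to complementary fragments of a transcription factor, and yeast grows when they meet. Such a screen reports binding in yeast and not in the podocyte, so that the place where a candidate is expressed matters. The candidates belong to different parts of the cell. Hnrnpf and Zbtb17 encode nuclear proteins, Flna, Itgb4 and Capns1 act in adhesion and the cytoskeleton, Mrpl38 belongs to the mitochondrion, Dnajc14 to the endoplasmic reticulum and Ccdc80 to the extracellular matrix, while Morn2 is known chiefly from the testis.

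Transcripts of 8 of the 9 candidates were measured above the dim level in knockout and in control glomeruli, and Itgb4 was not. Of the 18 probe sets, 14 were at log2 4 or more on each of the 6 arrays, and the same 14 had a mean of at least log2 6. Over the whole array 43.5% of probe sets were not dim, and 57% of genes were not dim when each was read from its leading probe set, the one with the highest mean. The 4 dim probe sets were that of Itgb4, 1 of Zbtb17 and 2 of Mrpl38. For Zbtb17 and Mrpl38, a further probe set carried signal.

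None of the candidates moved by as much as 1.5-fold. The differences of the 14 probe sets that were not dim lay between -0.17 and 0.052, and the largest, that of a Ccdc80 probe set, was 1.13-fold. The median size of these differences was 0.064, against 0.090 over the 19619 probe sets of the array that were not dim. At the criterion the paper used, a fold over 1.5 and an unadjusted p under 0.05, 0 of 18 candidate probe sets passed, where 0.18% of all probe sets did. At an adjusted p under 0.05 (limma, Benjamini-Hochberg over all probe sets) the count was also 0 of 18, with 0.00222% of all probe sets called. At an unadjusted p under 0.05, 1 of 18 passed with limma and 1 with SAM, the test of the methods, against 3.63% of all probe sets with limma. The groups were separated, with no overlap of knockout and control, for 1 of 18, against 6.32% of all probe sets and 13.7% of those not dim. Each of these single probe sets was the leading one of Ccdc80.

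The width of the 95% interval differed between candidates. For 12 of the 14 probe sets not dim, the 95% interval of the difference lay wholly within 1.5-fold in either direction, as did 77% of the intervals over all probe sets not dim. The exceptions were Flna and Morn2. In this fit, changes of up to 1.61-fold in Flna and 1.56-fold in Morn2 lay within the intervals. The interval of Capns1 reached no further than 1.12-fold. The widths depend on the fit as well as on the number of arrays. With filters at log2 4, at log2 6 or at a range of 0.1, all 14 intervals lay within 1.5-fold.

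**Figure D1:**
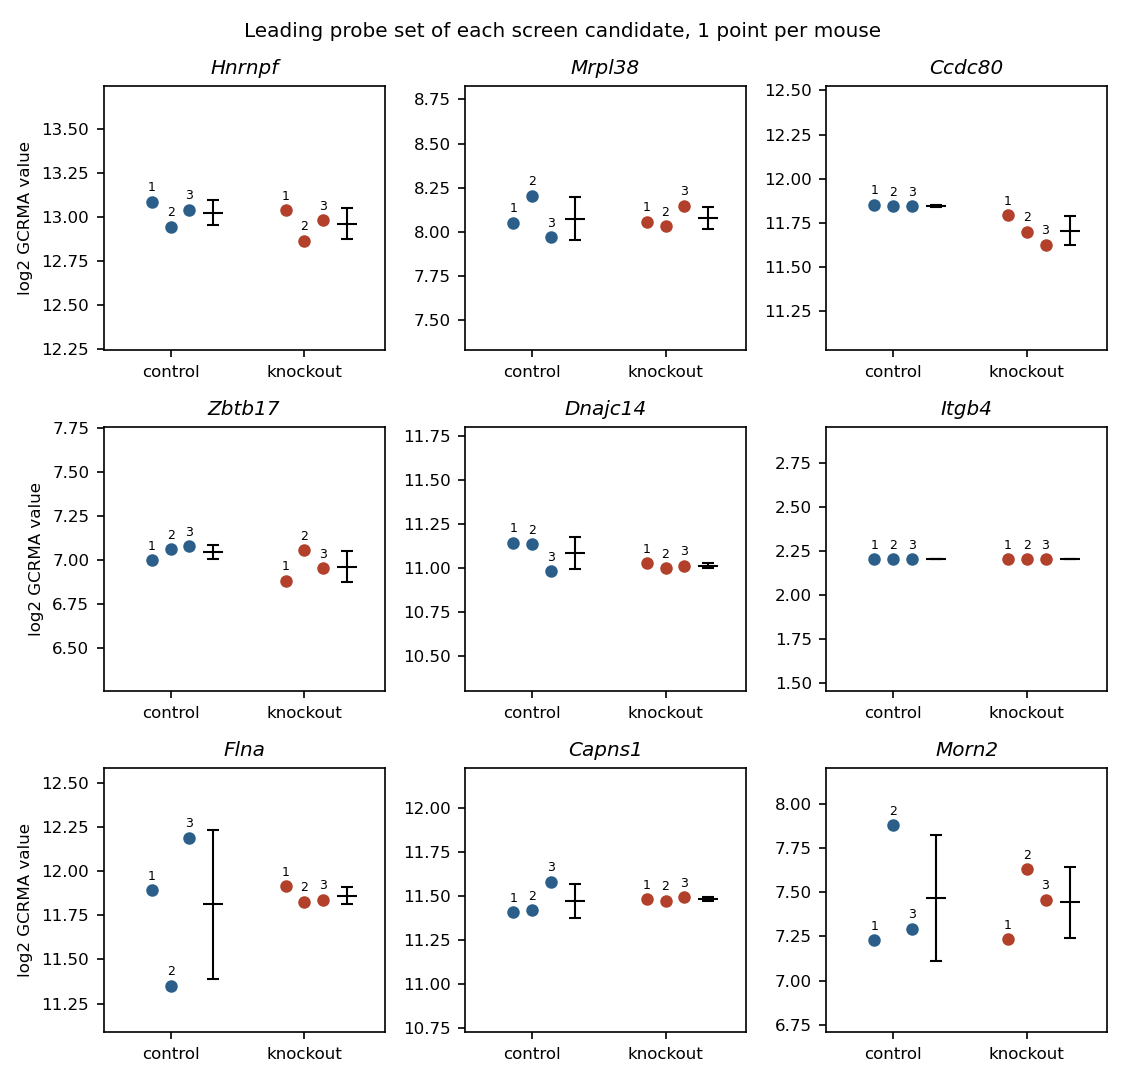
Log2 GCRMA value of the leading probe set of each of the 9 candidates, with 1 point per mouse (blue control, red knockout, numbers are replicates) and the mean ± SD of each group beside them (n = 3). Each panel spans the same 1.5 log2 units. Only the Ccdc80 groups do not overlap, the control values of Flna and Morn2 spread widely, and Itgb4 lies at the lowest value of the array.

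Hnrnpf encodes a nuclear ribonucleoprotein that binds G-rich RNA and regulates splicing. It has 4 probe sets, all of them far from dim. The leading one read 13.04, 12.86 and 12.98 in knockout 1, 2 and 3, and 13.09, 12.95 and 13.04 in control 1, 2 and 3. The groups overlapped, with knockout 2 the lowest of the 6 arrays, and the difference was -0.063 (standard error 0.063). The second, 1423382_a_at, read 11.85, 11.81 and 11.88 in knockout and 11.99, 11.82 and 11.96 in control, a difference of -0.077 (standard error 0.053). Here the groups overlapped through control 2 alone, the lowest of the controls. The third, 1437099_x_at, was at 11.60, 11.33 and 11.45 in knockout and at 11.60, 11.56 and 11.58 in control (difference -0.12, standard error 0.078), with knockout 1 as high as the controls. The fourth, 1450963_at, differed by only -0.0097 (standard error 0.050), and its sign changed with median centring. Unadjusted limma p values of the 4 were 0.198 to 0.855. By Affymetrix naming, a suffix _x_at marks probes that may also match other genes, which applies to 2 of these probe sets, so that signal from related genes cannot be told apart there.

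The closest relatives of Hnrnpf differed as little. Hnrnph1 was at -0.034, Hnrnph2 at -0.050 and Hnrnph3 at -0.014, each with overlapping groups. Of the 23 further hnRNP and related genes measured, none was dim. The knockout mean was the lower one for 16 and the higher one for 7, the median difference was -0.039, and the median over the 10379 genes not dim was 0.030. Median centring gave 8 higher and repeated quantile normalization 6. With 1 array left out in turn, 6 to 8 of the 23 were higher. None passed the criterion, which 0.247% of all genes did. The largest differences were those of Hnrnpl (-0.33, standard error 0.21), Hnrnpdl (-0.26, standard error 0.12), the splicing repressor gene Ptbp1 (-0.17, standard error 0.11) and Hnrnpc (0.16, standard error 0.085). Hnrnpa1 (-0.16) and Hnrnpm (0.11) had unadjusted limma p values of 0.0431 and 0.0461, in opposite directions. They were the 2 of the 23 under 0.05, a share close to the 8.33% of all genes not dim.

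Zbtb17 encodes Miz1, a zinc finger transcription factor that turns genes on by itself and represses them together with Myc. Its probe set with signal read 6.88, 7.06 and 6.95 in knockout and 7.001, 7.06 and 7.08 in control. The knockout mean of 6.96 ± 0.087 (SD, n = 3) was below the control mean of 7.05 ± 0.041 (SD, n = 3), with knockout 2 among the controls. The difference was -0.083 (standard error 0.053). The other probe set, 1443041_at, stood at 2.21 on each array and carried no signal.

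Among 18 genes of the Myc and Miz1 network, 15 were not dim, of which 7 were higher, 7 lower and Mxd3 the same on each array. Max, the partner of Myc, was at -0.061. The largest difference was that of Cdkn1a, which encodes the cell cycle inhibitor p21 and is repressed by Myc through Miz1. It read 10.08, 9.56 and 9.63 in knockout and 9.27, 9.04 and 9.49 in control, and all knockout values exceeded all control values. The difference of 0.49 (standard error 0.20) did not pass limma (unadjusted p of 0.0629). Cdkn2b, another cell cycle inhibitor gene and Miz1 target, was at 0.33 (standard error 0.19), Mycn at 0.35 (standard error 0.43) and Mxd4, which encodes a Max-binding repressor, at 0.31 (standard error 0.13). Groups did not overlap for 3 of the 15, against 13.9% of all genes not dim. These were Cdkn1a and Mxd4, both higher in knockout, and Topbp1, whose product binds Miz1, at -0.24 (standard error 0.11). None of the 18 passed the criterion.

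Flna encodes filamin A, which crosslinks actin filaments and ties them to integrins. Its single probe set read 11.92, 11.83 and 11.84 in knockout glomeruli. In control glomeruli it read 11.89, 11.35 and 12.19, so that control 2 was the lowest and control 3 the highest of all 6 arrays. The knockout mean was 11.86 ± 0.048 (SD, n = 3) and the control mean 11.81 ± 0.43 (SD, n = 3). The difference was 0.049 (standard error 0.24, 95% interval -0.59 to 0.69), and control 2 and 3 decide its sign. Without control 2 it was -0.18, and without control 3 it was 0.24. On the same 2 arrays the leukocyte list, all 10 genes measured and only Cd3e and Cd79a dim, had summed levels of 6827 and 34903. The proximal tubule list, 11 genes measured, had 5167 and 1106. On control 2 this last sum rests mainly on Kap, at 11.74 there and at 8.33 on control 3. The part of these cells in the Flna values was not tested. Flna lies on the X chromosome. Xist stood at 2.2 on each array. The Y-linked gene Kdm5d was at 7.39 to 7.41 in knockout and at 7.42 to 7.49 in control, a difference of -0.042 without overlap. Eif2s3y, also Y-linked, ran from 7.79 to 9.41 in knockout and from 7.92 to 9.29 in control. Both Y-linked genes were thus above the dim level on each array.

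Of the genes that work with filamins, 11 were measured and 10 were not dim, with 4 higher and 6 lower, or 5 and 5 with median centring. The largest differences were those of Asb2, whose product marks filamins for degradation (0.37, standard error 0.70), of the filamin-binding adaptor gene Fblim1 (0.36, standard error 0.20), and of the refilin genes Rflnb (0.24, standard error 0.24) and Rflna (-0.19, standard error 0.23). On control 2, Asb2 fell to 5.02 and Fblim1 to 6.44, the lowest of the 6 values for both, as for Flna. Flnc, the muscle filamin gene, was dim.

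Itgb4 encodes integrin β4, the partner of integrin α6 in the hemidesmosomes of stratified epithelia. Its single probe set, 1427387_a_at, stood at 2.2 on all 6 arrays, the lowest value of the table, and is therefore not well above background in either group. No difference can be given. The paper lists the clone as isoform 2 of the protein, and which isoforms the probes match was not examined.

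Several partners of integrin β4 were measured above the dim level, although the probe set of Itgb4 itself was not. Itga6, which also pairs with integrin β1, read 11.09, 11.08 and 11.03 in knockout and 11.34, 10.99 and 11.68 in control (difference -0.27, standard error 0.19). Its order over the control arrays was that of Flna, lowest in control 2 and highest in control 3. Itgb1 was at 12.88 to 13.18 over all arrays. Of 10 hemidesmosome genes measured, Plec, Dst, Cd151, Itga6, Lama3 and Lama5 were not dim, whereas Col17a1, Krt5, Krt14 and Lamb3, which mark the hemidesmosomes of stratified epithelium, were dim. Lama5 was at -0.21 (standard error 0.15), Dst at 0.16 (standard error 0.18) and Lama3 at 0.14 (standard error 0.16), and the groups of all 6 overlapped.

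Capns1 encodes the regulatory small subunit shared by the calcium-dependent proteases calpain 1 and calpain 2. Its values were 11.48, 11.47 and 11.49 in knockout and 11.41, 11.42 and 11.58 in control. The knockout values were nearly equal and lay between those of control. The difference was 0.013 (standard error 0.054, 95% interval -0.13 to 0.16), and its sign changed when quantile normalization was repeated. Without control 3 the knockout values exceeded the controls by 0.069.

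Its catalytic partners were both expressed. Capn2 read 12.21, 12.32 and 12.29 in knockout and 12.09, 12.21 and 12.12 in control. All knockout values exceeded all control values, by a mean of 0.13 (standard error 0.046), with an unadjusted limma p of 0.0417. Capn1 was at -0.034 (standard error 0.17), Cast, which encodes the calpain inhibitor calpastatin, at -0.0068 (standard error 0.059), and Capn10 at 0.13 (standard error 0.18). Capn7 was at 0.10 (standard error 0.036). Capns2, the other small subunit gene, was at the lowest value of the array. Of 11 genes of this group, 8 were not dim and none passed the criterion or an adjusted p of 0.05. Of the 8, 2 had an unadjusted limma p under 0.05, against 8.33% of all genes not dim.

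**Figure D2:**
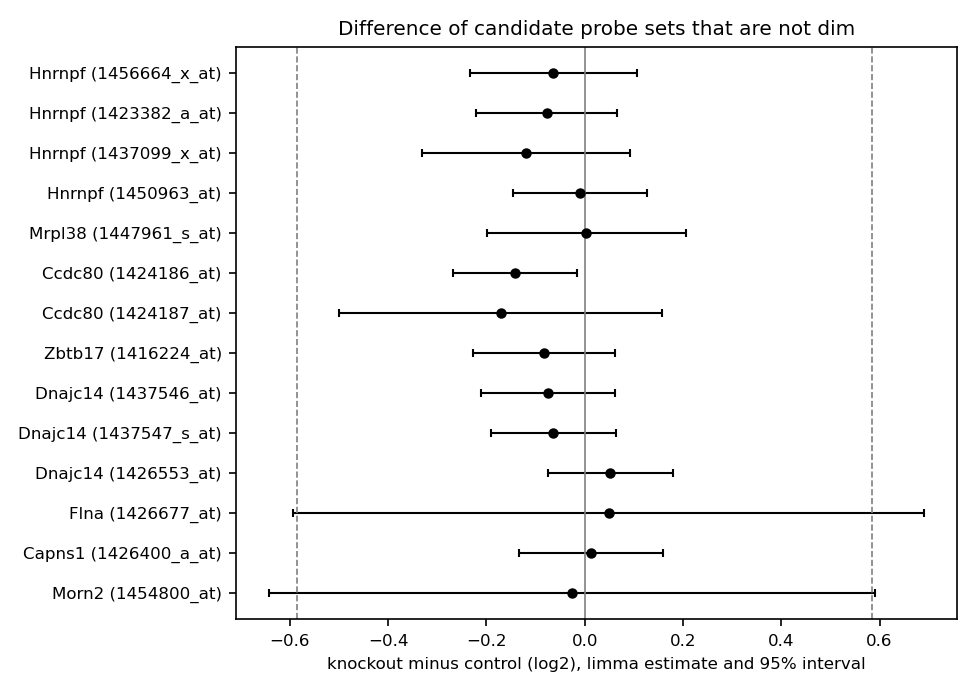
Knockout minus control (log2) of the 14 candidate probe sets that are not dim, with the limma estimate as a point and the 95% interval as a bar. The dashed lines mark 1.5-fold. Only the bars of Flna and Morn2 reach past them, and only that of the leading Ccdc80 probe set leaves out 0.

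Mrpl38 encodes a protein of the large subunit of the mitochondrial ribosome. Of its 3 probe sets 1 carried signal, and it read 8.06, 8.03 and 8.15 in knockout and 8.05, 8.20 and 7.97 in control. The means were 8.08 ± 0.062 (SD, n = 3) and 8.07 ± 0.12 (SD, n = 3). The difference of 0.0035 (standard error 0.075) was the smallest of the 14. Its suffix _s_at marks probes that match transcripts of more than one gene, and both probe sets without this suffix, 1430610_at and 1444217_at, were dim, at 2.28 to 2.56. In the GRCm38.p6 annotation Mrpl38 is a neighbour of Itgb4, with 7 protein-coding genes between them.

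The other genes of the large mitochondrial ribosomal subunit stood slightly but rather uniformly higher in knockout glomeruli. Of 46 measured, 45 were higher and 1, Mrpl54, was lower, with a median difference of 0.088. In comparison, 6225 of the 10379 genes not dim were higher, with a median of 0.030. The count was 45 with median centring, 44 with repeated quantile normalization and 39 to 45 with 1 array left out, 39 of them without control 2. Groups did not overlap for 10 of the 46, all of them higher in knockout, where 13.9% of all genes not dim did not overlap. Mrpl35 (0.21, standard error 0.079), Mrpl55 (0.20, standard error 0.10), Mrpl23 (0.18, standard error 0.055) and Mrpl43 (0.18, standard error 0.067) had the largest differences. Mrpl51 read 11.28, 11.31 and 11.35 in knockout and 11.19, 11.18 and 11.14 in control, with an unadjusted limma p of 0.00368. Of the 46, 4 had an unadjusted limma p under 0.05, a share close to the 8.33% of all genes not dim. None of the 46 passed the criterion or an adjusted p of 0.05. In order of difference, Mrpl38 was the third from the lowest of the 47. All 7 podocyte genes were higher in the same comparison (median 0.16) and all 8 endothelial genes lower (median -0.13). The groups overlapped for each of the 7 podocyte genes. Their median deviation from the mean of 6 arrays was -0.19, 0.098 and -0.097 on control 1, 2 and 3 (knockout 0.036 to 0.12). Of 10 leukocyte genes 8 were higher (median 0.66). All 9 genes of the loop, distal nephron and collecting duct (median -0.43) and 10 of 11 proximal tubule genes (median -0.16) were lower. Of these lists 8, 5 and 7 genes were not dim. Their median deviation from the mean of 6 arrays was -2.29, 2.16 and 1.33 on control 2. On control 1 and 3 the leukocyte list was at 0.33 and 0.77 (knockout -0.090 to 0.77). The distal list was at -0.49 and -0.31 (knockout -0.48 to -0.43). The proximal tubule list was at -0.13 and -0.93 (knockout -0.19 to 0.11). The leukocyte, distal and proximal tubule directions thus rest largely on control 2. In whole glomeruli, fewer cells of a type and less RNA per cell cannot be told apart. The part of the cell types in the shift of the mitochondrial ribosomal genes was not tested.

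Dnajc14 encodes a co-chaperone of the endoplasmic reticulum membrane that assists the export of receptors. Its leading probe set read 11.03, 10.999 and 11.01 in knockout and 11.14, 11.13 and 10.98 in control, so that control 3 lay below all knockout values. The difference was -0.075 (standard error 0.051). The probe set 1437547_s_at was at -0.064 (standard error 0.047). The probe set 1426553_at was at 0.052 (standard error 0.047), in the opposite direction, and the groups overlapped for all 3. The probe sets of this gene therefore gave no common direction.

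Of 25 further genes measured in this family, DnaJ class C genes together with Hspa8, the cytosolic Hsp70 gene, 20 were not dim. Of these, 15 were higher and 5 lower in knockout, and the median difference was 0.065. Repeated quantile normalization gave 13 higher, and without control 3 the median was 0.017. Dnajc30 had the largest difference (0.22, standard error 0.062) with an unadjusted limma p of 0.0208, followed by Dnajc16 (0.17), Dnajc7 (0.15) and Dnajc15 (0.15). For these 4 of the 20 genes all knockout values exceeded all control values, where 13.9% of all genes not dim had groups that did not overlap. Hspa8 was at 0.12 (standard error 0.15). Of the 20 genes, 1 had an unadjusted limma p under 0.05, against 8.33% of all genes not dim.

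Ccdc80 encodes a secreted protein that binds the extracellular matrix and is made largely by mesenchymal cells. It was the one candidate with separated groups. The leading probe set, 1424186_at, read 11.79, 11.70 and 11.62 in knockout and 11.85, 11.84 and 11.84 in control. All knockout values lay below all control values (p = 0.1 by an exact two-sided permutation of the arrays, which can give no smaller value with 3 per group). The means were 11.70 ± 0.084 (SD, n = 3) and 11.85 ± 0.0049 (SD, n = 3), and the difference was -0.14 (standard error 0.047, 95% interval -0.27 to -0.016), or 1.10-fold. The unadjusted limma p was 0.0345 and the adjusted p was 1. With 1 array left out, the unadjusted limma p ran from 0.00422 to 0.0934, and it was above 0.05 without knockout 2 or without any one of the controls. It was 0.0559 to 0.0829 when dim or constant probe sets were filtered out.

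The other Ccdc80 probe set, 1424187_at, read 8.48, 8.39 and 8.13 in knockout and 8.37, 8.55 and 8.59 in control. It differed in the same direction, by -0.17 (standard error 0.12), with overlapping groups, and knockout 3 was the lowest array for both probe sets. The summed levels of the fibroblast and of the endothelial markers were lower in the same comparison. The summed unlogged level of 7 fibroblast genes was 4139 to 4942 in knockout and 4997 to 6097 in control, with Col1a1, Col3a1, Lum and Dpt dim, so that the sum rests mainly on Pdgfra and Col1a2. Dcn, the remaining fibroblast gene, was higher in knockout by 1.06 (standard error 0.44), and its groups did not overlap. The mean of Dcn over the 6 arrays was 4.28, near the dim level. Gene by gene the fibroblast list had no common direction, with 2 genes higher, 2 lower and a median difference of 0. Pdgfra, which encodes a receptor of platelet-derived growth factor, read 10.87, 11.27 and 11.03 in knockout and 11.82, 11.73 and 11.38 in control, a difference of -0.59. The summed level of the 8 endothelial genes was 76064 to 80124 in knockout and 80930 to 83585 in control, with none dim. The 7 mesangial and smooth muscle genes, with Cnn1 dim, summed to 31104 to 33348 in knockout and 30090 to 33709 in control, which overlap. Among them Tagln (0.68), Acta2 (0.44) and Myh11 (0.41), genes of contractile cells, were higher in knockout, Tagln without overlap, and Pdgfrb was at -0.053. The part of these cells in the Ccdc80 values was not tested. Srpx and Srpx2, which encode secreted proteins that share a domain with Ccdc80, were dim.

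Morn2 encodes a small protein built of MORN repeats, motifs that bind membranes, and is known from germ cells. Its single probe set read 7.24, 7.63 and 7.46 in knockout and 7.23, 7.88 and 7.29 in control. Control 2 was the highest and knockout 2 the next. The means were 7.44 ± 0.20 (SD, n = 3) and 7.47 ± 0.36 (SD, n = 3), and the difference was -0.025 (standard error 0.23, 95% interval -0.64 to 0.59). Without control 2 it was 0.18. The same 2 arrays had the highest summed levels of 11 proximal tubule genes, 5167 on control 2 and 3208 on knockout 2, against 1106 to 2293 on the other 4. Of these genes Cubn, Slc5a12, Slc22a6 and Ass1 were dim. On these 2 arrays the sum rests mainly on Kap, at 11.74 and 11.15. Slc27a2 and Miox were also highest on control 2 and next on knockout 2, whereas Slc34a1 and Aqp1 did not have this order. The summed level of the distal list was highest on control 2 (13404) and lowest on knockout 2 (2861). The part of tubule cells in the Morn2 values was not tested.

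Most genes of other MORN repeat proteins carried no signal. Of 10 measured, 8 were dim, among them Morn1, Morn3, Morn5 and the junctophilin genes. The exceptions were Morn4 (0.0098, standard error 0.19) and Setd7, which encodes a lysine methyltransferase (-0.015, standard error 0.067). Morn4 was highest on control 2, at 7.53, as Morn2 was.

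**Figure D3:**
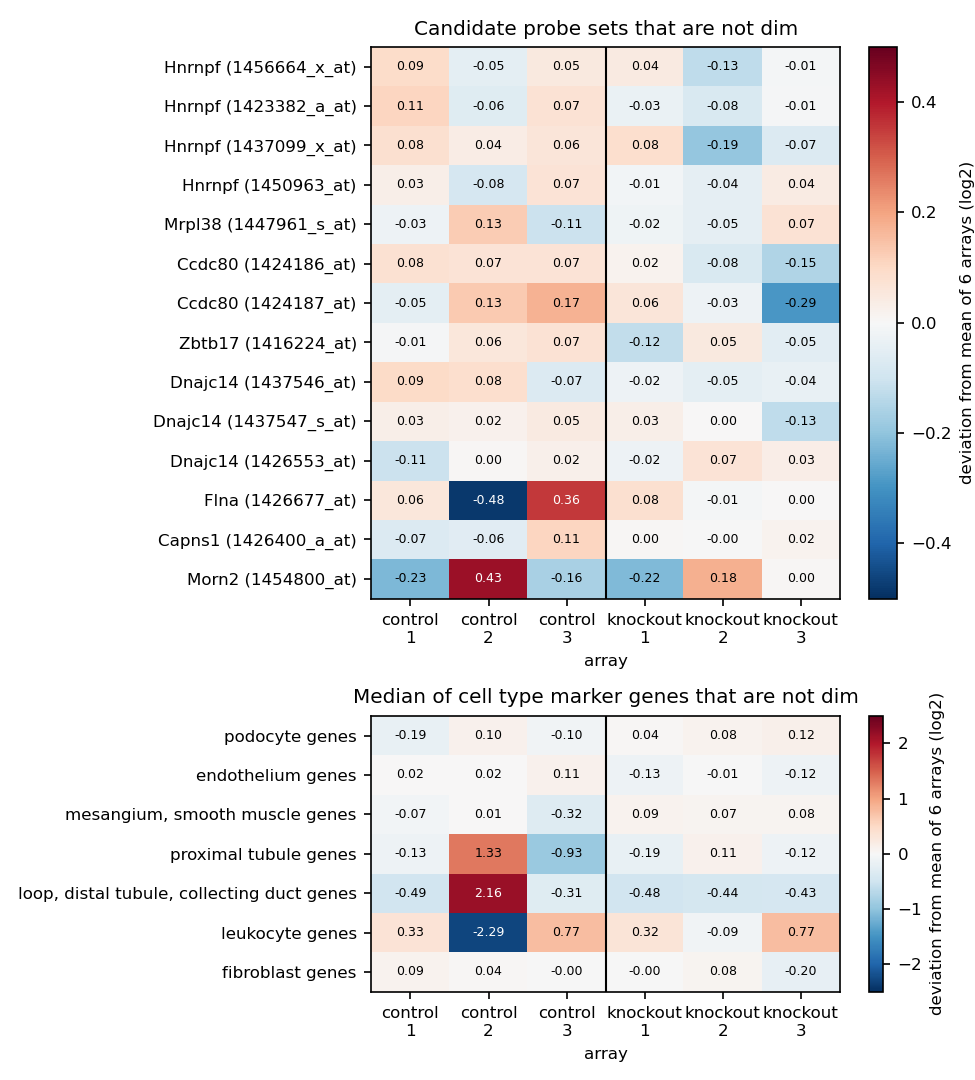
Deviation of each array from the mean of the 6 arrays (log2) for the 14 candidate probe sets that are not dim (top, colour scale ±0.5) and as the median of the marker genes of each cell type drawn that are not dim (bottom, colour scale ±2.5). Parietal epithelial cells are not drawn, since of their genes only Cldn1 (difference 0.74) was not dim. Control 2 holds the lowest Flna and the highest Morn2 value, and on it the tubule lists lie at 1.33 and 2.16 and the leukocyte list at -2.29.

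Between mice, most candidates varied by little. Over the 6 arrays the 14 probe sets spanned 0.15 to 0.84, and none reached 1. The median SD was 0.073 in knockout and 0.084 in control, against 0.091 and 0.12 over all probe sets not dim. The control SD was the larger in 8 of the 14, and in 63.5% of all probe sets not dim. Control 3 gave the highest value in 6 of the 14 and control 1 in 4, while knockout 3 gave it in none. Of the 14, 10 were lower and 4 higher in knockout, and 44.8% of all probe sets not dim were lower. Median centring turned 1 Hnrnpf probe set upward, and repeated quantile normalization turned Capns1 downward. Since 7 of the 14 belong to Hnrnpf and Dnajc14, this count does not stand for 14 independent genes. Of the 8 leading probe sets not dim, 5 were lower and 3 higher.

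**Figure D4:**
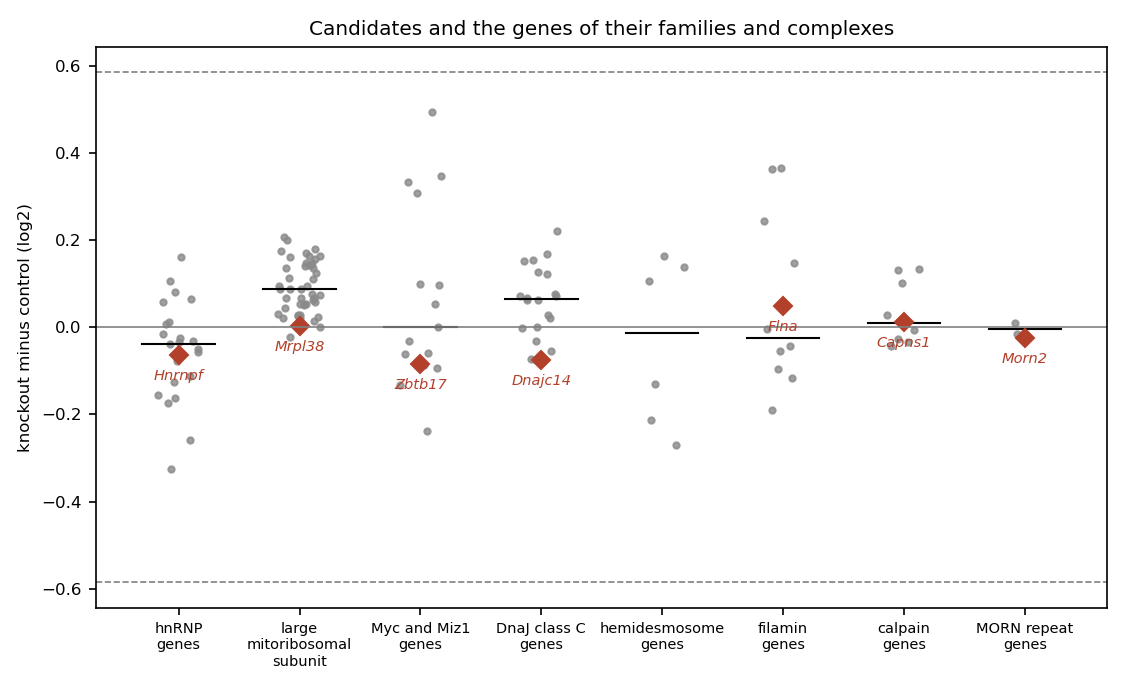
Knockout minus control (log2) of each candidate drawn (red diamond, leading probe set) beside the genes of its family or complex that are not dim (grey points, black bar the median). The dashed lines mark 1.5-fold. Integrin β4 is not drawn since it is dim. Ccdc80, whose companion genes Srpx and Srpx2 were dim, is not drawn either. No point lies outside the lines, and the points of the large mitochondrial ribosomal subunit lie almost wholly above 0.

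Over all lists, 156 companion genes were measured and 130 were not dim. Of the 130, 21 had groups that did not overlap (18 higher and 3 lower in knockout) and 9 had an unadjusted limma p under 0.05, against 13.9% and 8.33% of all genes not dim. None of the 156 passed the criterion.

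Of the other 4 single-gene positive clones of the screen, only Gadd45a differed by more than 1.5-fold. Gadd45a, a stress-induced gene of growth arrest, read 11.31, 10.97 and 10.87 in knockout and 10.25, 10.66 and 10.33 in control, a difference of 0.64 (standard error 0.18). The unadjusted limma p was 0.0195 and the adjusted p was 1, and Gadd45a passed the criterion. Gadd45a was chosen for follow-up partly for its level on these same arrays, so that this value is a description. Wtip, which encodes a LIM protein that binds Wt1, was at 0.13 (standard error 0.062) and Bmp4, a growth factor gene, at 0.067 (standard error 0.18), both with overlapping groups. Pou5f1, the gene of the Oct-3 clone, was at the lowest value of the array on all 6 arrays, as Itgb4 was. Whether the difference of Gadd45a exceeds those of the 9 candidates was not tested.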

How the data were processed

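Glomerular RNA of 3 dendrin knockout and 3 control mice was measured on 1 Affymetrix array each. The authors processed the intensities with GCRMA (version 2.30.0), and the deposited values are log2 intensities per probe set. Raw intensities were not analysed here. Arrays were grouped by the titles in the labels. Probe sets were named from the platform annotation (34958 with 1 gene, 932 with several, 9211 with none), and all 9 candidates matched GRCm38.p6 by gene identifier. No coordinates are printed, since the files name no build. Knockout was compared with control by limma (version 3.58.1, R 4.3.3; lmFit, eBayes, two-sided) over all 45101 probe sets without filter or covariate (4 residual and 0.312 prior degrees of freedom), and 95% intervals use the moderated standard error. SAM was written out with a fudge constant and 20 permutations. The lists hold the families and complexes of the candidates and cell type markers, and candidates and lists were chosen with earlier results of these data known. Named genes are all candidates, the other single-gene clones, up to 4 genes per list with the largest difference that were not dim, those past the criterion, and marker genes. Hnrnph1, Hnrnph2, Hnrnph3, Hnrnpa1, Hnrnpm, Max, Topbp1, Itga6's partner Itgb1, Capn1, Cast, Capn7, Mrpl51, Mrpl54, Hspa8 and the dim genes were named besides, after their values were seen. The rule for genes of similar pattern applied to no candidate, since none spanned 1 log2 unit. Arrays hold no counts, so their number limits the precision. The procedure was tested on simulated data. Alternatives were SAM, an intensity trend, filters, centring, repeated quantile normalization, an offset, array weights, the replicate block, 1 probe set per gene and the omission of each array.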

Additional observations from a re-analysis of the deposited data

How the results depend on the processing

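No candidate passed the criterion or an adjusted p of 0.05 in any of the 17 alternative fits, nor at a fold over 2, and no companion gene passed the criterion in the 9 alternatives run for the lists. Of 232 candidate differences recomputed, 217 kept their sign and 15 turned, all of them of 5 probe sets with small differences. Flna turned to -0.047 with array weights and to -0.18 without control 2, and with 1 array left out it ran from -0.18 to 0.24. Morn2 turned to 0.12 with array weights, 0.18 without control 2 and 0.078 without knockout 1 (range -0.14 to 0.18). Hnrnpf 1450963_at turned to 0.0094 with median centring and to 0.0024 to 0.022 without knockout 2, control 1 or control 3 (range -0.054 to 0.022). Mrpl38 turned to -0.031, -0.0084 and -0.050 without knockout 3, control 1 and control 3 (range -0.050 to 0.069). Capns1 turned to -0.00059 with repeated quantile normalization and to -0.018 and -0.013 without control 1 and control 2 (range -0.018 to 0.069). The causes were not tested. With filters at log2 4, at log2 6 and at a range of 0.1, the count of candidate probe sets with an unadjusted p under 0.05 was 0, and the intervals of all 14 lay within 1.5-fold. With median centring the count was 3 and 3 did not overlap, among them the constant dim probe sets of Itgb4 and Zbtb17, which the centring itself shifts. With 1 array left out the count ran from 0 to 2, non-overlap from 1 to 4 (2099 to 3502 of all 10379 genes not dim did not overlap then, against 1438 with all arrays) and intervals within 1.5-fold from 11 to 12, and with 1 probe set per gene, where fewer probe sets were tested, intervals within 1.5-fold numbered 6. Replicate numbers are shared by both groups, and same-numbered arrays deviated with correlations of 0.095, 0.35 and 0.25. Each array correlated best with its own number, a hint of pairing from the data. For control 1 the margin was slight, 0.0949 with knockout 1 and 0.0944 with knockout 3. No label ties the numbers to litters or batches and 1 correlation was under 0.1, so that the numbers were not taken as pairs. With the replicate number as a block in limma, 1 candidate probe set again had an unadjusted p under 0.05, the leading one of Hnrnpf, with a p of 0.0123, and no longer that of Ccdc80, with a p of 0.0654. The differences did not move under the block, and 12 intervals lay within 1.5-fold.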

Other observations

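The genes of the small mitochondrial ribosomal subunit, a group chosen after the values of the large subunit were seen, showed the same direction. Of 29 genes with a symbol of the Mrps series, none was dim. The knockout mean was the higher one for 25 and the lower one for 4, and the median difference was 0.12. Groups did not overlap for 5, of which 4 were higher, where 13.9% of all genes not dim did not overlap. None passed the fold and p criterion. With 1 array left out in turn, 24 to 26 were higher and the median ran from 0.079 to 0.16. The median was 0.14 with median centring and 0.11 with repeated quantile normalization.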
